A study of Heterocephalus glaber and Mus musculus with 6 samples.

Results

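The keratin and cornified envelope genes of the mouse were followed through RNA-seq counts of epidermal keratinocytes. The members were every gene of the GENCODE vM21 annotation (GRCm38) whose symbol is Krt followed by a number alone, begins with Krtap, Lce or Sprr and a number, is Tgm1 to Tgm7, or is Flg, Flg2, Lor, Ivl, Hrnr, Rptn or Tchh. That rule found 160 genes, of which 98 had a count entry under their own Ensembl identifier among the 42675 such entries of the mouse tables. Genes named Krt with a letter after the number, such as Krt6a, fall outside the rule. The members were sorted into an epidermal class of 59 genes, a hair class of 82 and 19 others that belong to other epithelia or whose site is unsettled.

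The mouse samples were 3 libraries of normal FVB mice aged 7 to 8 weeks. Dorsal skin was treated with dispase to lift the epidermis, the epidermis was dissociated, and cells were sorted by fluorescence with an antibody to CD49f, the integrin alpha-6 chain of basal keratinocytes. The study paired them with 3 libraries of naked mole-rats aged 6 to 7 months, prepared alike but sequenced by another provider. The naked mole-rat tables share no identifier with the mouse tables, so no member was compared between species. All 3 mouse libraries form 1 group, and everything below is a description with no test. The labels do not give the animals or their sex behind each library, so the spread between libraries may be technical in part.

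Keratins are the intermediate filament proteins of epithelia and assemble as pairs of a type I and a type II chain. In the epidermis, Krt5 and Krt14 form the filaments of dividing basal cells, and Krt1 and Krt10 replace them as cells move outward. In the outermost layers involucrin, loricrin and the small proline-rich and late cornified envelope proteins are joined by transglutaminases into the cornified envelope, and filaggrin bundles the keratin beneath it. The hair follicle uses its own keratins: one set in the inner root sheath, together with trichohyalin, and another in the shaft, where keratin-associated proteins fill the space between filaments.

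Mouse library totals were 52499080, 53465434 and 52970733 counts for libraries 1, 2 and 3. Most counts lay in assembled loci without a gene name, and entries with an Ensembl identifier held 10.6% to 11.5% of a library. A count of 0 allows up to 0.0571, 0.0561 and 0.0566 CPM in libraries 1, 2 and 3, taken as 3 counts, where CPM is the count per 1000000 counts of the library. Such limits and the counting intervals below cover counting error only and are no test between libraries. They take each value as a count of reads, which is uncertain, since the values may derive from estimated coverage. Library 1 stood apart by Ddx3y, a Y-linked gene, which had 3483 counts there and 0 in the other 2. Library 1 thus held RNA of male cells, and by this 1 gene the other 2 showed none. If a 0 there means no such RNA, library 1 was not made from the same animals alone. No other sex-linked gene is given here.

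Sequence is shown first for the keratin-associated genes Krtap3-1, Krtap3-2 and Krtap3-3, neighbours on chromosome 11 (minus strand, GRCm38), because a member's count can be read only as far as its sequence is its own. The lines give the first 120 coding bases of each, from the GENCODE vM21 transcripts, 5′ to 3′, with capitals at the 6 positions where the genes are not all alike.
Krtap3-1: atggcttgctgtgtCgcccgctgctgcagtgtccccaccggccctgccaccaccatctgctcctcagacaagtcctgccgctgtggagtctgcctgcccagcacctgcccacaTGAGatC
Krtap3-2: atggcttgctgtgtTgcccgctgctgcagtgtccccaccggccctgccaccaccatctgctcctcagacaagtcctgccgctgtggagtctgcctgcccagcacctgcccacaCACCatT
Krtap3-3: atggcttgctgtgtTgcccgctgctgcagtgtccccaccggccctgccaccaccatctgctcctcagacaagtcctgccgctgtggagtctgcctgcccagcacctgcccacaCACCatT
Over these bases Krtap3-2 and Krtap3-3 differed at 0 positions, and Krtap3-1 differed from each at 6. Of the 50-base stretches in the Krtap3-3 transcript, 41.3% also occurred in Krtap3-2, and of those in Krtap3-2 28.9% occurred in Krtap3-3. How the counting treated reads that match both genes is not given in the sources used here, so the 2 values are uncertain relative to each other.

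Few members were measured, and many had no entry, among them the main keratins of the basal and suprabasal epidermis. Measured here means a mean over the 3 libraries of 10 counts or more. Of the 98 members with an entry, 15 (15.3%) were measured, 22 were above 0 with a lower mean, and 61 (62.2%) had 0 in every library. Over all protein-coding genes with an entry, 45.2% were measured and 41.5% had 0 in every library. The other 62 members, 29 epidermal, 30 hair and 3 other, had no entry and are not analysed here. An entry existed for 61.25% of the members and for 66.3% of the 22028 annotated protein-coding genes. Reads from a gene without an entry may have been counted in assembled loci, so neither a missing entry nor a 0 says how much of that gene's RNA the cells held.

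**Figure D1:**
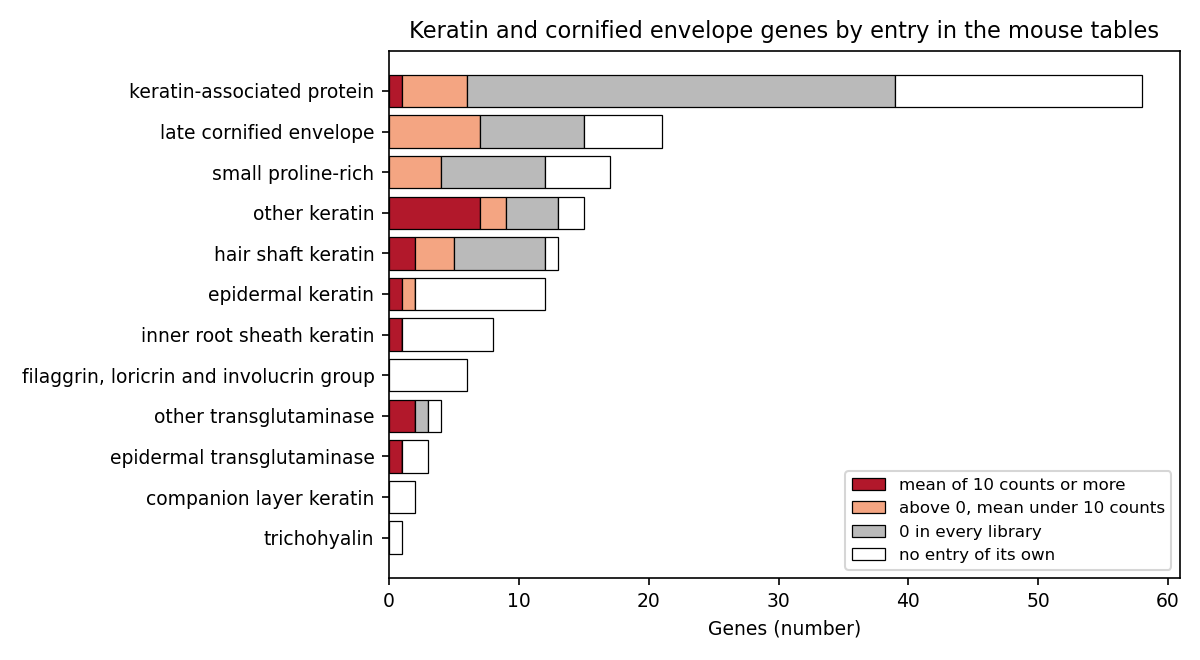
Number of genes (horizontal axis) in each family of the 160 members, split by whether the mouse tables hold an entry and how high its mean count over 3 libraries was. The filaggrin, loricrin and involucrin group, the companion layer keratins and trichohyalin had no entry, while 33 of 58 keratin-associated genes were at 0 in every library.

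Of the 12 epidermal keratins, 2 had an entry. The basal pair Krt5 and Krt14, the suprabasal pair Krt1 and Krt10, the basal and follicle keratin Krt15, the wound keratin Krt16, and Krt77, Krt78, Krt79 and Krt80 had none. All 6 genes of the filaggrin, loricrin and involucrin group (Flg, Flg2, Hrnr, Ivl, Lor and Rptn) were likewise without one, as were Tgm1 and Tgm5, transglutaminases of the cornified envelope. The identity of the sorted cells could therefore not be checked with their defining keratins. In the follicle, an entry was lacking for 7 of 8 inner root sheath keratins (Krt25, Krt27, Krt28, Krt71, Krt72, Krt73 and Krt74), for Tchh, and for the companion layer keratins Krt17 and Krt75. Hair shaft keratins were the opposite, with an entry for 12 of 13, all but Krt35.

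Late cornified envelope genes had an entry for 15 of 21 and small proline-rich genes for 12 of 17, and none of these 27 entries was measured over all 3 libraries. Of the late cornified envelope entries 8 were at 0 in every library and 7 above 0, and of the small proline-rich entries 8 were at 0 and 4 above 0. Keratin-associated genes had an entry for 39 of 58, of which 33 were at 0, 5 low and 1 measured. In the class of other epithelia or unsettled site, 13 of 15 keratins had an entry and 7 of these were measured. The simple-epithelium keratins Krt8, Krt18 and Krt20, which Merkel cells also express, were at 0 in all 3 libraries.

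The longest runs of consecutive members without an entry were 8, 6, 3, 3 and 3 in the 5 clusters examined. On chromosome 15, where the type II keratin members span 684.6 kb, the 6 consecutive members Krt75, Krt5, Krt71, Krt74, Krt72 and Krt73 had no entry. In the epidermal differentiation complex on chromosome 3, the array of envelope genes, members span 1368.8 kb, and 8 consecutive ones from Sprr1a through Sprr4, Ivl, Lce6a, Lce1a1, Lce1b and Lce1a2 to Lce1c had none. Flg2, Flg, Hrnr, Rptn and Tchh, at the far end of that complex, had none either. The keratin-associated array of chromosome 11 was above 0 in 5 genes, Krtap3-3, Krtap3-2, Krtap3-1, Krtap1-4 and Krtap1-3, all starting within the first 40.3 kb of its 443.9 kb. The 13 entries starting 83.98 kb or more from its first member were all at 0. On chromosome 16, 16 of 17 keratin-associated entries were at 0, the exception being Krtap11-1 with 0, 3 and 0 counts.

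**Figure D2:**
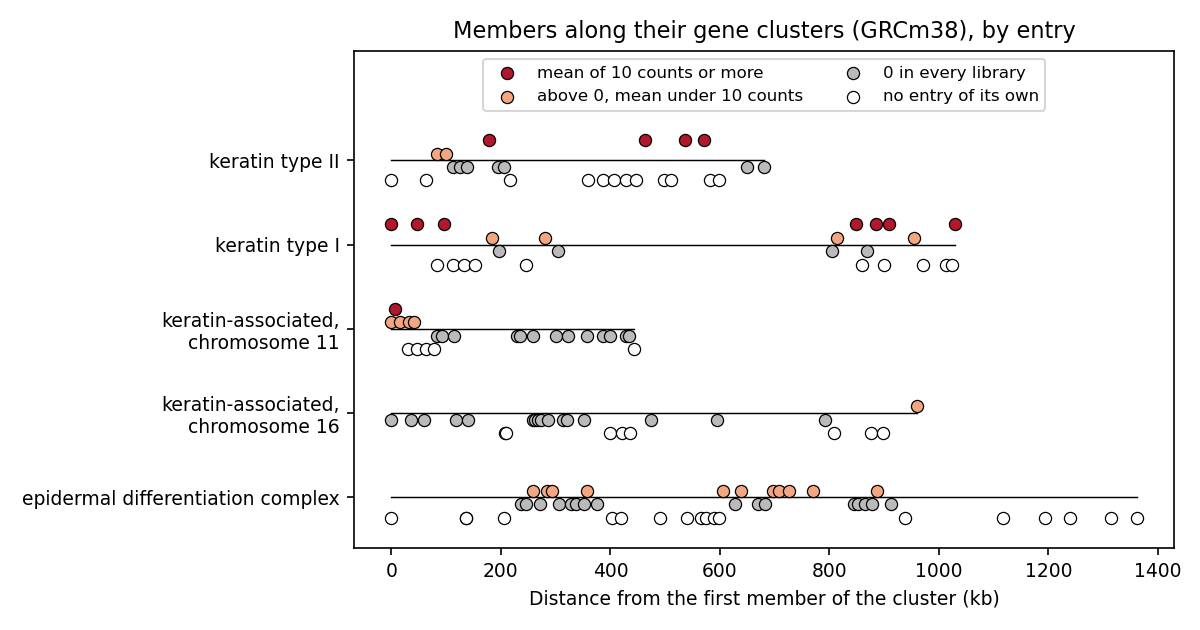
Members of 5 gene clusters placed by distance in kilobases from the first member of their cluster (horizontal axis), with colour and height above or below each line marking the entry's state. The longest run without an entry is 8 members in the epidermal differentiation complex, and the entries above 0 on the chromosome 11 keratin-associated array sit at one end.

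Over all 3 libraries the measured members of the epidermal class were Tgm3 and Krt2. Without library 1, Lce1l would join them at a mean of 12 counts. Tgm3, an epidermal transglutaminase that joins envelope and inner root sheath proteins (chromosome 2, 130012349 to 130050399, plus strand), had 988, 673 and 606 counts in libraries 1, 2 and 3. That is 18.8, 12.6 and 11.4 CPM, a mean of 14.3 ± 3.97 CPM (SD, n = 3). Library 1, the one with Ddx3y counts, was the highest, and its exact Poisson 95% interval of 17.7 to 20.03 CPM lay above those of library 2 (11.7 to 13.6) and library 3 (10.5 to 12.4). Krt2, a type II keratin of the upper epidermal layers (chromosome 15, 101810689 to 101818169, minus strand), had 111, 173 and 129 counts. Its mean was 2.60 ± 0.578 CPM, with library 2 the highest and library 1 the lowest, whereas Tgm3 was higher in library 1 than in library 2.

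Among envelope precursors the counts were a handful of reads. Sprr1b, a small proline-rich protein, had 14, 5 and 5 counts, and Sprr2d had 0, 0 and 14. Lce1l, a late cornified envelope protein, had 0, 16 and 8 counts. The palm and sole keratin Krt9 had 0, 5 and 5. The remaining late cornified envelope entries above 0 had at most 7 counts in any library (Lce1j, with 7, 0 and 0). These genes share sequence: over the 21 late cornified envelope members a median of 19.9% of the 50-base stretches also occurred in a transcript of another gene, with a highest share of 49.3% in Lce3d. For the small proline-rich genes the median was 0.71%, but for Sprr2a1 and Sprr2a2, which have no entry, the shares were 96.3% and 96.5%.

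Summed over the 30 epidermal entries, the level was 21.4, 16.5 and 14.8 CPM in libraries 1, 2 and 3, a mean of 17.6 ± 3.46 CPM (SD, n = 3). Tgm3 decided that order, and library 1 its highest value: without library 1 the mean was 15.7 CPM. Without Tgm3 the sum was 2.63, 3.95 and 3.34 CPM, a mean of 3.31 ± 0.660 CPM, and library 1 was then the lowest.

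Among hair genes with an entry, Krt32 carried most of the counts. Krt32, a type I hair keratin of the shaft cuticle (chromosome 11, 100080848 to 100088226, minus strand), had 524, 449 and 628 counts, or 9.98, 8.40 and 11.9 CPM, with a mean of 10.1 ± 1.73 CPM (SD, n = 3). Library 3 was the highest and library 2 the lowest. Of its 1721 exon bases, 249 overlap the antisense gene Gm11571, which had 11, 47 and 48 counts. The libraries were made with a directional kit, but whether the counting used strand is not given in the sources used here. Both neighbours are shaft keratins: Krt31 had 0, 0 and 10 counts, and Krt35, 3966 bases away, had no entry.

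Krt84, a type II hair keratin, had 8, 17 and 48 counts, or 0.152, 0.318 and 0.906 CPM. Library 3 was highest, and its exact Poisson 95% interval of 0.668 to 1.20 CPM lay above those of the other 2, 0.0658 to 0.300 and 0.185 to 0.509. Krtap3-2, whose coding start is printed above, had 26, 23 and 33 counts, and its near-copy Krtap3-3 had 9, 5 and 12. Krtap3-1, which differs from both within that stretch, had 1, 0 and 0 counts. Of the 12 hair entries above 0, 5 were highest in library 3: Krt32, Krt84, Krtap3-2, Krtap3-3 and Krt31. Library 1 was the highest for 4 and library 2 for 3. Krtap3-2 and Krtap3-3 share sequence and so are not separate instances. Over measured named genes, 38.0%, 37.6% and 24.4% were highest in libraries 1, 2 and 3. Only 4 of the 12 were measured, so those shares are not a like comparison. Krtap3-1, Krtap1-4, Krtap1-3 and Krtap11-1 had at most 4 counts in any library, too few to rank the libraries. Krt87, another shaft keratin, had 13, 14 and 0 counts, lowest in library 3, and 36.9% of its 50-base stretches also occurred in other genes. Krt26, of the inner root sheath, had 18, 7 and 9 counts and was highest in library 1.

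The shaft keratins at 0 in all libraries were Krt34, Krt36, Krt40, Krt81, Krt82, Krt83 and Krt86. Of the 50-base stretches of Krt81, 37.7% also occurred in other genes, and of those of Krt86 43.3%, mostly in each other. The 52 hair entries together had 11.6, 9.76 and 14.03 CPM, a mean of 11.8 ± 2.14 CPM (SD, n = 3). Without Krt32 the sum was 1.60, 1.37 and 2.17 CPM, in the same order of libraries. The hair sum divided by the epidermal sum was 0.540, 0.591 and 0.949 in libraries 1, 2 and 3. That rests on Krt32 and Tgm3: without both the ratio was 0.609, 0.346 and 0.650, lowest in library 2. Neither ratio sets one class against the other, since the genes differ in length and many have no entry. The sums leave out 29 of 59 epidermal members, among them Krt5, Krt14, Krt1 and Krt10, and 30 of 82 hair members. Because each library is RNA from many sorted cells, a smaller number of cells of one type and less RNA per cell cannot be told apart.

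**Figure D3:**
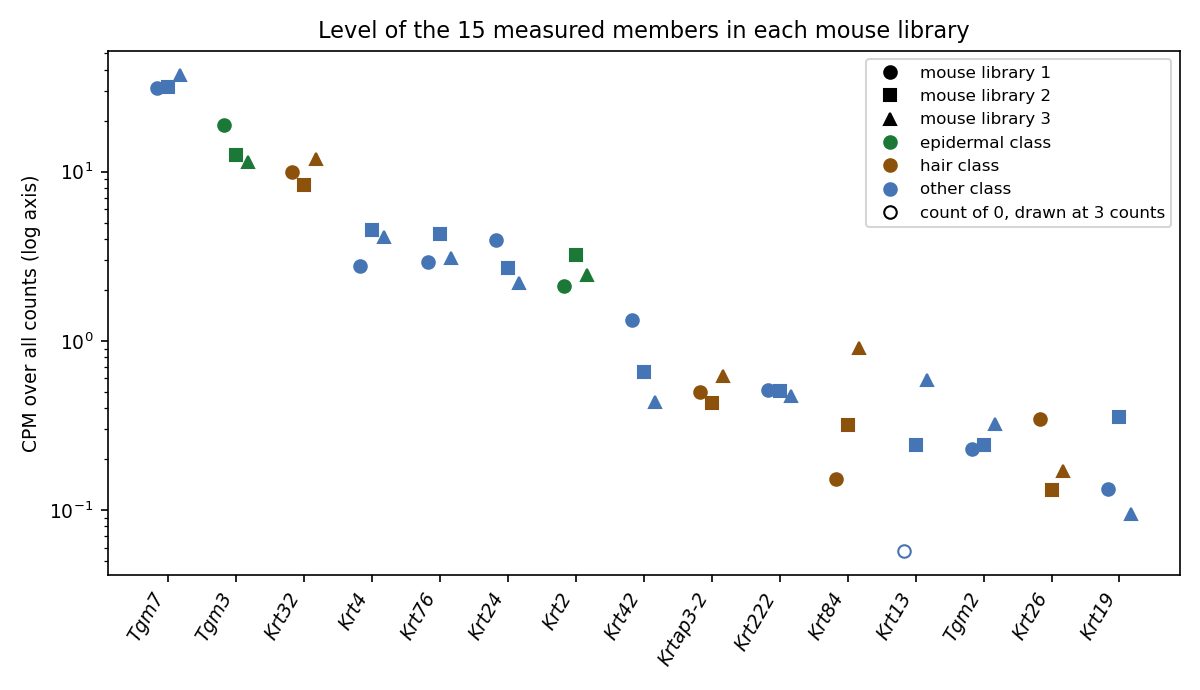
Level in CPM over all counts (logarithmic vertical axis) of each measured member in mouse libraries 1, 2 and 3, with colour for its class; an open circle marks a count of 0, drawn at 3 counts. Tgm7 lies highest at 31.3 to 37.5 CPM, and Krt32 and Krt84 are highest in library 3. The widest scatter is among the genes under 50 counts on the right, though Krt222, also there, varies least.

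Among the 98 members with an entry, the highest by count and per kilobase of exon was Tgm7, of the other class. The 62 members without an entry, most of them epidermal or hair genes, have no level to set beside it. Tgm7 encodes a member of the transglutaminase family (chromosome 2, 121093565 to 121109795, minus strand). It had 1643, 1686 and 1987 counts, or 31.3, 31.5 and 37.5 CPM, with a mean of 33.4 ± 3.52 CPM (SD, n = 3). Library 3 was the highest, and libraries 1 and 2 lay within each other's counting intervals (29.8 to 32.8 and 30.05 to 33.1 CPM). None of its 50-base stretches occurred in another gene's transcripts, and no annotated gene overlaps it. Its nearest protein-coding neighbours are Tgm5, 7723 bases away and without an entry, and Lcmt2, 18511 bases away on the other side, both on its strand. Tgm2, the widespread tissue transglutaminase, had 12, 13 and 17 counts, and 370 of its exon bases overlap Rprd1b on the opposite strand. Tgm6 had 0 in every library, and Tgm4 had no entry.

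The other measured keratins belong to the class of other epithelia or unsettled site. Krt4, a type II keratin of mucosal linings such as the oesophagus, had 145, 243 and 217 counts and a mean of 3.80 ± 0.927 CPM (SD, n = 3), lowest in library 1. Its type I partner Krt13 had 0, 13 and 31 counts, so it too was lowest in library 1, where the upper limit is 0.0571 CPM against 0.243 and 0.585 CPM in the others. Krt76, a type II keratin of the palate and other stratified epithelia, had 154, 230 and 163 counts. Krt24, a type I keratin, had 207, 144 and 116, highest in library 1.

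Krt42, a type I keratin of the mouse that lies 1852 bases from Krt17, had 70, 35 and 23 counts, and its 3 libraries stood in the same order as those of Krt24 and Tgm3. Only 0.23% of its 50-base stretches occurred in Krt17. Krt222, a keratin-like gene, was the steadiest, with 27, 27 and 25 counts. Krt19, of simple epithelia and the follicle bulge, had 7, 19 and 5. It was the member just inside the threshold with a mean of 10.3 counts, next to Krt26 at 11.3, while Krt87 at 9 and Krtap3-3 at 8.67 were just outside. Together the 16 entries of this class had 43.4, 45.2 and 48.8 CPM, of which Tgm7 made up most. Without Tgm7 the sum was 12.1, 13.7 and 11.3 CPM.

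Per kilobase of exon, the scale on which genes can be set against one another, Tgm7 was again the highest measured member at 15.5 ± 1.64 CPM per kilobase (SD, n = 3). That placed it above 99.8% of the 6606 measured protein-coding genes, whose median was 2.11 CPM per kilobase. This and the percentiles below rank only genes with an entry. The 7423 protein-coding genes without one, Krt5, Krt14, Krt1 and Krt10 among them, are not in the ranking, so it is not a rank over all RNA of the cells. Krt32 followed at 5.86 ± 1.01 and Tgm3 at 3.45 ± 0.960 CPM per kilobase, at percentiles 84.3 and 65.2. The ranges of 1 SD around these 3 means did not overlap. Next came Krt4 at 1.78 ± 0.435, Krt24 at 1.59 ± 0.489 and Krt76 at 1.49 ± 0.325 CPM per kilobase, which did not differ beyond their spread. Krt2 had 0.993 ± 0.221 CPM per kilobase, overlapping Krt76 within 1 SD and lying at percentile 34.5. The other 8 lay between 0.0573 CPM per kilobase for Tgm2 and 0.501 for Krtap3-2. In all, 3 of the 15 were above the median of measured protein-coding genes.

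**Figure D4:**
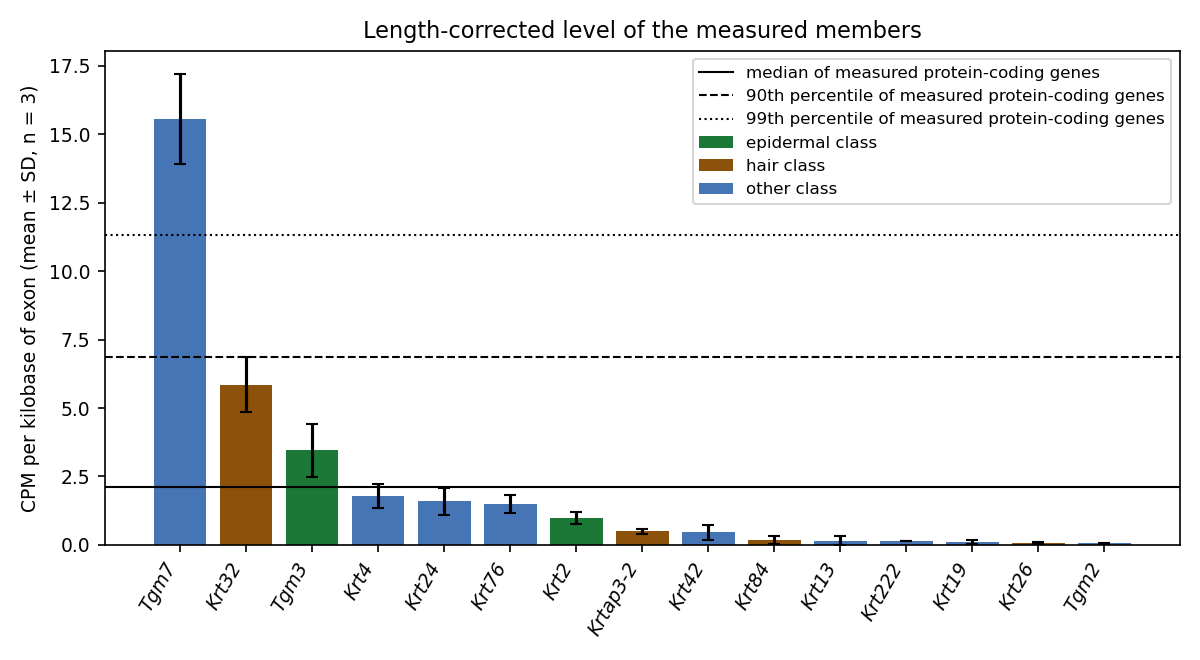
Mean CPM per kilobase of exon (bars, from 0) with SD over 3 mouse libraries (error bars) for the 15 measured members, coloured by class, beside the median, 90th and 99th percentiles of measured protein-coding genes (lines). Tgm7 lies above the 99th percentile of 11.3, Krt32 and Tgm3 above the median of 2.11, and the remaining 12 below it.

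Over all measured named genes, library differences of 2-fold were more frequent at few counts, and the measured members that showed them had few counts too. A library was called apart when its log2 CPM, with 0.5 added to each count, lay at least 1 unit (2-fold) from the mean of the other 2. That held in some library for 5 of the 15 measured members, Krt42, Krt84, Krt13, Krt26 and Krt19, and for 16.6% of the 9965 measured named genes. Of the 8 members with a mean under 50 counts 5 were apart, where 40.5% of such genes were. Of the 7 with 50 counts or more (Tgm7, Tgm3, Krt32, Krt4, Krt76, Krt24 and Krt2), 0 were apart, where 4.99% of such genes were. By library, 4, 2 and 4 members were apart in libraries 1, 2 and 3, beside 9.3%, 7.75% and 10.4% of measured named genes. Of the 15, 5 were highest in library 1, 4 in library 2 and 6 in library 3, beside 38.0%, 37.6% and 24.4% of measured named genes. The lowest value fell in library 1 for 7, in library 2 for 3 and in library 3 for 5, beside 29.9%, 22.4% and 47.6%. Without library 1 or without library 2 the remaining pair was 2-fold apart in 3 members, and without library 3 in 4. The median deviation of the 15 members was −0.14, −0.13 and −0.10 on the log2 scale in libraries 1, 2 and 3, beside 0.047, 0.073 and −0.098 over all measured named genes.

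Of 32 further genes of the cornified envelope, 6 had an entry and 3 were measured, beside an entry for 66.3% of annotated protein-coding genes. Aloxe3, a lipoxygenase of the barrier lipid pathway, had 1582, 1505 and 1951 counts, or 30.1, 28.1 and 36.8 CPM, highest in library 3. Sdr9c7, a dehydrogenase acting on lipids bound to the envelope, had 504, 722 and 1136 counts, and Csta1, a cysteine protease inhibitor, had 121, 148 and 211. All 3 were thus highest in library 3, where Tgm3 was lowest, beside 24.4% of measured named genes highest there. Padi3 and Crnn were at 0, and Padi1 had 3, 0 and 0 counts. Genes for the desmosome-anchored scaffold proteins (Ppl, Evpl, Dsp), for the barrier protease Casp14 and for the kallikreins Klk5, Klk6, Klk7 and Klk8 had no entry.

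Of 14 regulators of epidermal differentiation only Prdm1, a transcriptional repressor, had an entry, with 103, 149 and 223 counts. An entry existed for 66.3% of annotated protein-coding genes. For these regulators too, a missing entry does not say how much RNA the cells held. Of 10 genes tied to hair keratin expression or the shaft, 7 had an entry and 5 were measured. Foxn1, a transcription factor of the hair matrix, had 1490, 1731 and 2201 counts. The homeobox gene Dlx3 had 267, 304 and 450 counts and was, like Foxn1 and Prdm1, highest in library 3, as were 24.4% of measured named genes. Hoxc13, a homeobox activator of hair keratins, had 35, 51 and 22 counts and was lowest there. Msx2, a homeobox gene of the hair matrix, had 237, 326 and 249, and Foxq1, a factor of the hair medulla, had 2374, 2291 and 1910.

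Markers of other skin cells were mostly low where they had an entry, with Mitf and Cd83 as exceptions, and their part in the values above was not tested. Mitf, the melanocyte transcription factor that other cells also express, had 507, 511 and 405 counts (8.95 ± 1.13 CPM, SD, n = 3), and Cd83, of mature dendritic cells and activated lymphocytes, had 179, 293 and 125 (3.75 ± 1.59 CPM). The 3 sebaceous entries of 5 markers summed to 0.548 to 0.729 CPM, and the 6 Merkel markers (Atoh1, Sox2, Isl1, Krt8, Krt18 and Krt20) were all at 0. The 5 melanocyte entries of 6 summed to 7.97 to 10.2 CPM, with Tyr and Mlana at 0. The 4 myeloid entries of 6 summed to 4.30 to 6.40 CPM, highest in library 2. The 3 T cell entries of 4 summed to 0.762 to 1.40 CPM, highest in library 3, though Trdc, with 28, 18 and 23 counts, was highest in library 1. Among the myeloid entries Lyz2, lysozyme, had 0, 0 and 59 counts, above 0 in library 3 alone. Ptprc, with 24, 41 and 48 counts, was also highest there. Aif1, with 23, 8 and 9 counts, was highest in library 1, and Cd83 in library 2. The 4 fibroblast entries of 7 summed to 0.495 to 0.673 CPM, with Lum and Pdgfrb at 0, and the 4 endothelial entries to 0.190 to 0.262 CPM, with Kdr, Cdh5 and Emcn at 0.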

How the data were processed

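For every library the authors deposited whole-number counts per Ensembl identifier and per assembled locus, raw counts per the labels. Tools listed by the submitters' processing notes are cutadapt, FastQC, Bowtie2 and TopHat2, with build mm10. No source used here gives the counting program, its use of strand or its treatment of reads matching several genes. A count of 1 was rarer (641 entries of mouse library 1) than a count of 3 (781 entries), so the values may derive from estimated coverage. Each mouse table has 54364 entries, of which 11689 are assembled loci that carry no names and were used only in library totals.

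Mouse identifiers were joined to symbols, positions and exon lengths of GENCODE vM21 (GRCm38). Of 42675 identifiers, 42457 were paired with a symbol, and the 42321 with a unique one formed the background of named genes. CPM was taken over all counts of a library. Shared sequence is the share of a gene's distinct 50-base transcript stretches found, on either strand, in a transcript of another gene. With 1 group of 3 libraries no test was made. TMM factors of edgeR 4.0.16 and size factors of DESeq2 1.42.0 (R 4.3.3) served as alternative scalings. Values were computed in Python 3.11.15 with pandas 2.3.3, numpy 2.4.6 and scipy 1.17.1, and figures were drawn with matplotlib 3.10.9. Members, classes and lists were chosen with earlier results of these data known. The text names every member with a mean of 10 counts or at least 10 in 1 library, set keratins and envelope genes at 0 or without an entry, and measured related genes. Other names, such as Krt9, Lce1j, Krtap3-1, Lyz2 and those given by cluster, were chosen after their values were seen.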

Additional observations from a re-analysis of the deposited data

How the results depend on the processing

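No paired analysis was possible because the members were measured in 1 group only and the species share no identifier. The TMM and DESeq2 factors lay from 0.970 to 1.029, too near 1 to move a mean far. With them the 60 values of 30 named genes moved by less than 1 SD. A mean of 3 cannot move that far when 1 library is left out, so this was not read for single genes; without library 3, Krt31 and Sprr2d were at 0. Without library 1 Krt26 fell under the minimum and Lce1l passed it, without library 2 Krt19 and Krtap3-3 changed places likewise, and without library 3 Krt13 and Krt87, so 15 members were measured each time, 14 of them shared. Leaving out a library gave 64 to 66 at 0, 3 to 4 that were 2-fold apart, and sums of 15.7 to 19.0 CPM (epidermal), 10.7 to 12.8 (hair) and 44.3 to 47.0 (other). A minimum mean of 5 or 20 counts gave 20 or 11 measured members. With no minimum, 27 of 37 entries above 0 were 2-fold apart, which adds entries of few counts. Over Ensembl entries only, whose totals are smaller, the sums were 156.8, 106.1 and 410.6 CPM. Leaving out Tgm3, Krt32 and Tgm7, chosen after seeing the data like all alternatives for the other class, for related genes and for leaving out a library in the 2-fold count, gave 3.31, 1.71 and 12.3 CPM. Of the 22 low members, 12 had counts in 1 library alone. The reason was not tested, and the same share over all genes was not computed.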
